A study of Mus musculus with 12 samples.

Results

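The receptors for glutamate and GABA, the main excitatory and inhibitory transmitters of the brain, were followed through the RNA of a myelin-enriched membrane fraction at 4 ages. Members were taken by gene symbol alone: every gene in the table named as a subunit of an AMPA, kainate, delta or NMDA receptor, a metabotropic glutamate receptor, or a GABA-A or GABA-B receptor. The rule found 47 of the 21937 genes listed, and 40 of them passed the filter on low values (a value of at least 10 in at least 3 of the 12 samples). The fraction is a light membrane preparation from the brains of male c57Bl6/N mice, an inbred laboratory strain, all with the WT genotype and with no treatment in the labels. Each of the ages P18 (postnatal day 18), P75 (postnatal day 75), 6 months and 24 months had 3 samples. The labels number the samples without saying that each came from a separate animal. The p-values therefore cover only the spread of these samples within their ages, estimated per gene over all 12 samples together. The labels name brain and no region, so a region cannot be read from a value, and in such bulk RNA fewer cells of a type and less RNA per cell cannot be told apart.

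AMPA, kainate and NMDA receptors are ion channels that open when glutamate binds, while the metabotropic glutamate receptors signal through G proteins. GABA-A receptors are chloride channels, most often of alpha, beta and a gamma or delta subunit, and GABA-B receptors are G protein coupled pairs of Gabbr1 and Gabbr2. Neurons carry most of these proteins, but astrocytes, oligodendrocytes and their precursors express some of them, and myelin fractions also bring axonal and synaptic membrane with them.

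The start regions of 4 members that the results below set apart are shown for their sequence and GC content. Gabbr1 and Gabbr2 encode the paired subunits of 1 receptor and moved apart from each other at P75. Grm3 had the largest log2 difference of value plus 1 between P18 and P75 among the tested members, at 1.48. Gabrr2, with low counts, was close to it at 1.46, so their order rests on the added 1. Gabra2 fell between P75 and 6 months while Gabra3, Gabra4, Gabra5 and Gabra6 rose. The full windows lie directly before the annotated start of transcription and are given 5′ to 3′ along the gene from RefSeq (GRCm38.p6). The Gabbr2 window was trimmed where it ran into an annotated exon. Its removed bases are those next to the start, so the printed ones do not reach it. Capitals mark the letters GGGCGG, the core of a site for Sp1, searched on both strands. The windows are chr17:37045716-37045965 (plus strand) for Gabbr1, chr4:46991874-46991964 (minus strand) for Gabbr2, chr5:9725353-9725602 (minus strand) for Grm3 and chr5:71095850-71096099 (minus strand) for Gabra2.
Gabbr1: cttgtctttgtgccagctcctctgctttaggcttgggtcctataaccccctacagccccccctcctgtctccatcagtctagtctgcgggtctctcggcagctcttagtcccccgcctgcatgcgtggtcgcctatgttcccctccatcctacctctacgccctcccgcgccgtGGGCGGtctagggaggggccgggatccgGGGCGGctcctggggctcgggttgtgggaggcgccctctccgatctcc
Gabbr2: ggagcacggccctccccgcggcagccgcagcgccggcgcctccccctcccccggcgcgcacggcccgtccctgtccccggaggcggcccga
Grm3: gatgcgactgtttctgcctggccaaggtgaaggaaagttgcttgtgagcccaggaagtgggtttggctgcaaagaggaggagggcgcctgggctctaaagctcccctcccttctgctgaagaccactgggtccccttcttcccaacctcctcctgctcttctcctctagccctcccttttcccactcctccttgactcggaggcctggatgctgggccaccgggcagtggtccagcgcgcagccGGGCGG
Gabra2: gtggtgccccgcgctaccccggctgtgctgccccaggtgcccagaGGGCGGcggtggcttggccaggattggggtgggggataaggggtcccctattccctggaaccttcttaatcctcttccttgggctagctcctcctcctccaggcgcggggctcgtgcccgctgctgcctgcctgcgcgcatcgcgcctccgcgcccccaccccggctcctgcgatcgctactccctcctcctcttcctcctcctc
The Gabbr1 window held 2 matches, the Grm3 and Gabra2 windows 1 each, and the printed Gabbr2 window, cut to 91 bases because 159 of its bases are annotated as exon, held 0. Uncut, the Gabbr2 window held 2 matches at a GC content of 80.8%, and the counts over windows that follow use uncut windows. The letters occurred in 32.7% of all 32851 promoter windows of the RefSeq table and in 18 of the 39 windows of members, which covered 32 of the 47 genes. GC content was 85.7% in the printed Gabbr2 window, 66% in that of Gabbr1, 70.0% in that of Gabra2 and 62.4% in that of Grm3. A match describes letters in a window and names no site in use.

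Samples held 20299052 to 27214385 reads in genes, with 16949 to 17261 genes detected, and calls and counts of calls were also computed with each sample left out in turn; sums, ratios and levels per length were not. Mature oligodendrocyte markers, which check the labelled myelin fraction, took a mean of 17.1% of all normalised counts at P18 and 6.83%, 7.90% and 7.98% at the later ages. The P18 samples ranged from 0.58 to 1.44 of their own mean, and of 18 tested markers 6 rose and 6 fell at P75 (all genes: 21.7% and 18.7%). The 19 pan-neuronal markers found in the table took 1.30%, 1.39%, 1.30% and 1.20%. None of the markers in the 12 cell type lists was at 0 in all samples.

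The mean summed count of the receptor genes was higher at each later age, a sum that was not tested. The 47 genes together had a summed normalised count of 44468 ± 4389 for P18, 69101 ± 1617 for P75, 102131 ± 9066 for 6 months and 115969 ± 7528 for 24 months (SD, n = 3), and samples of successive ages did not overlap from P18 to 6 months. Relative to the P18 mean, the samples lay between 1.53 and 1.59 at P75, between 2.11 and 2.51 at 6 months and between 2.41 and 2.72 at 24 months. The pan-neuronal list, measured the same way, ranged from 294791 to 353128 for P18, 296808 to 339248 for P75, 290318 to 297417 for 6 months and 271191 to 290474 for 24 months, so its sum was not higher at the later ages. Of its 19 tested genes, 1 rose and 11 fell at P75, 8 rose and 4 fell at 6 months, and 0 rose and 4 fell at 24 months (all genes: 21.7% and 18.7%, 27.1% and 25.4%, and 10.8% and 8.34%). The 4 of 19 called at 24 months are near the 19.2% of all genes. The P75 falls numbered 7 without P75 replicate 1, and the 24-month falls numbered 1 without 6 months replicate 1 or 2 or without 24 months replicate 1 or 2. Some marker lists had higher mean sums at every later age: in order of age, the means relative to P18 were 1.47, 1.74 and 2.84 for microglia, 1.22, 1.54 and 1.72 for striatal neurons, 1.38, 1.88 and 1.82 for endothelium and mural cells, and 2.06, 1.98 and 1.79 for olfactory bulb and nerve. Others had lower means at every later age, at 0.75, 0.92 and 0.79 for forebrain excitatory neurons and 0.60, 0.61 and 0.55 for oligodendrocyte precursors. Those of cerebellar granule cells, Purkinje cells, astrocytes and mature oligodendrocytes were lower too. GABAergic interneurons lay at 1.13, 0.94 and 1.30. The part of these cell types in the receptor values was not tested. Whether the mix of neurons and membranes in the fraction plays a part in the receptor values was not tested.

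**Figure D1:**
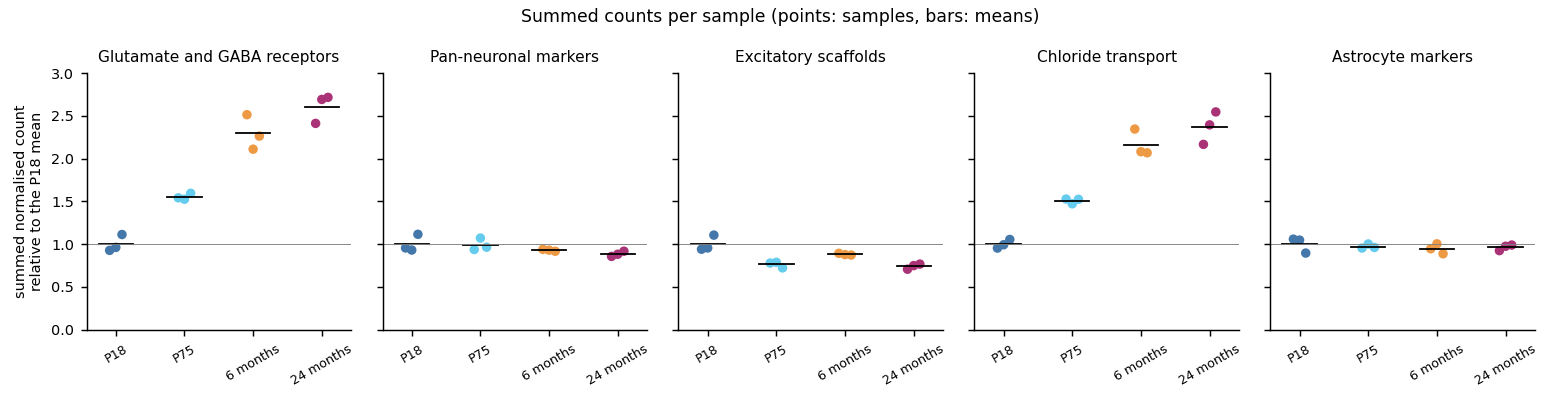
Summed normalised count of 5 gene lists in each of the 12 samples, divided by the mean of the P18 samples (vertical axis, no unit), by age (horizontal axis). Points are samples and bars are means. The receptor sum and the chloride transport sum lie above 2 in all 6 samples of 6 and 24 months, while the pan-neuronal, excitatory scaffold and astrocyte sums stay between 0.71 and 1.11.

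Consecutive ages were compared gene by gene, which asks when in life each receptor differed in this fraction. Differences are given as log2 fold changes of value plus 1, later age over earlier, ± SE, from limma over 14987 genes with Benjamini-Hochberg adjusted p-values, and a gene is called when that p is below 0.05. From P18 to P75, 30 of the 40 tested members rose and 2 fell, against a background of 40.4% of all genes called (21.7% higher and 18.7% lower), and the members' median difference was 0.56 where that of all genes was 0.0172. Without P18 replicate 2 the rises numbered 25, and without P18 replicate 2, P75 replicate 2 or P75 replicate 3 there was 1 fall. From P75 to 6 months, 26 rose and 2 fell, where 52.4% of all genes were called (27.1% higher and 25.4% lower) and the members' median was 0.42 against 0.00291 for all genes. From 6 to 24 months, 8 rose and 5 fell, where 19.2% of all genes were called (10.8% higher and 8.34% lower) and the median was 0.13 against 0.0301. Those 8 rises became 14 without P18 replicate 3 and 4 without 6 months replicate 2 or 24 months replicate 2, and the 5 falls became 3 without 6 months replicate 1 or 3 or 24 months replicate 1 or 2. All 40 members passed the F test over the ages, as did 77.4% of all genes. The comparisons share the samples of the middle ages and are not independent of each other. They also share 1 estimate of the spread per gene from all 12 samples, so dropping a P18 sample can change calls at 24 months.

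**Figure D2:**
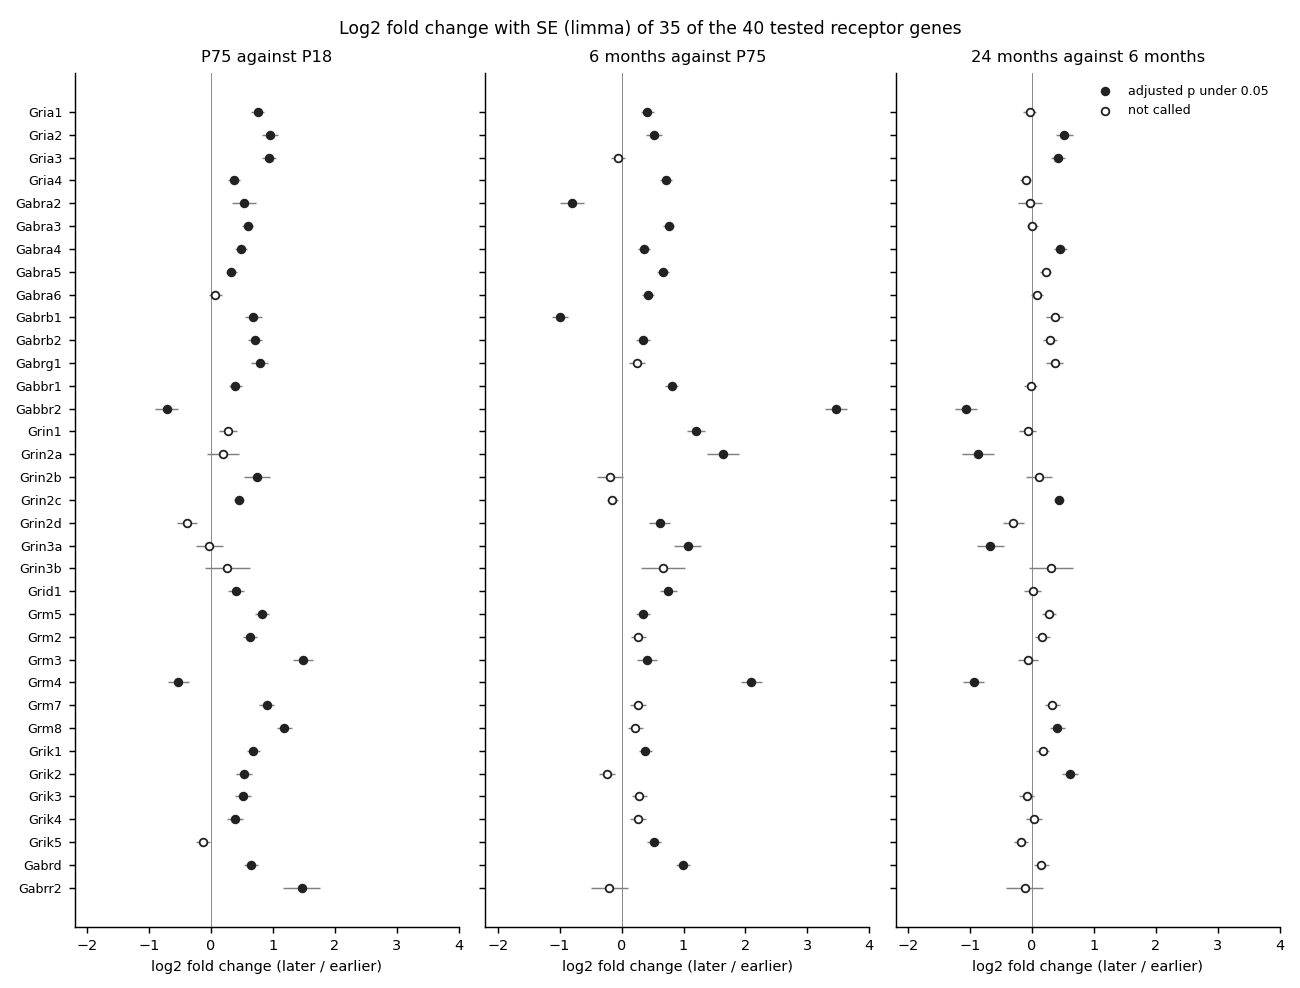
Log2 fold change with its SE (horizontal axis, later age over earlier) of 35 of the 40 tested receptor genes (rows, grouped by family) in 3 comparisons. Filled points passed an adjusted p of 0.05 in limma. Points lie mostly to the right of 0 in the first 2 panels, with Gabbr2 and Grm4 farthest right at 6 months and back on the left at 24 months.

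Patterns over the 3 comparisons differed between members. Called rises at both P75 and 6 months were found for 17 of 40 (42.5%), where 7.46% of all genes had both. All 3 comparisons were called higher for 4 of 40 members, Gabra4 and Gria2 among them, and for 1.23% of all genes. A rise at 6 months followed by a fall at 24 months was called for 5 of 40 members (12.5%), Gabbr2, Grm4, Grin2a and Grin3a among them, and for 6.44% of all genes. Gabra2 and Gabrb1 rose at P75 and then fell at 6 months.

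**Figure D3:**
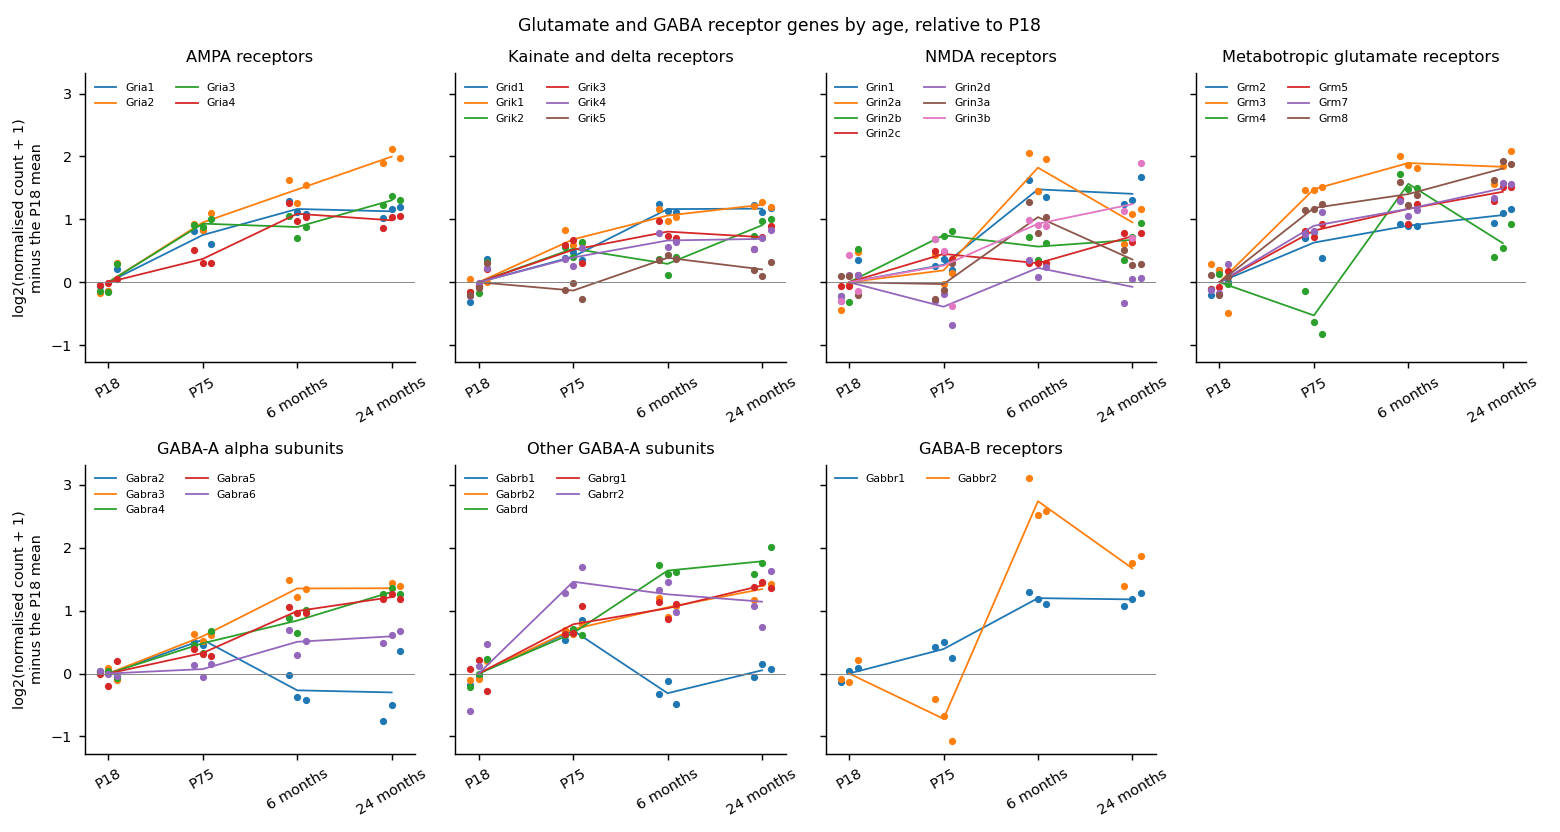
Difference of log2(normalised count + 1) from the P18 mean (vertical axis, log2 units) by age (horizontal axis) for 35 of the 40 tested genes, in 7 panels by family. Points are samples and lines join the means. The AMPA, metabotropic and most GABA-A lines climb from P18 on, while Grin2a, Grm4 and Gabbr2 are near or below 0 at P75 and peak at 6 months.

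All 4 AMPA receptor genes rose at P75, 3 of them at 6 months and 2 at 24 months. Of all genes, 21.7%, 27.1% and 10.8% were called higher in these comparisons. AMPA receptors carry most fast excitatory transmission, and their subunits set the conductance and calcium entry of the channel. Gria2, whose edited subunit keeps calcium out, had normalised counts of 2897, 2985 and 4062 at P18, 6202, 5843 and 7004 at P75, 10067, 7863 and 9533 at 6 months, and 12147, 14302 and 12877 at 24 months. Each age lay above the one before it in every sample. It rose by 0.95 ± 0.13 at P75 (adjusted p = 3.76e-05), by 0.52 ± 0.13 at 6 months (adjusted p = 0.00307) and by 0.52 ± 0.13 at 24 months (adjusted p = 0.0125). Gria3, which pairs with Gria2 in many receptors, had counts of 2103, 2095 and 2848 at P18, 4377, 4283 and 4645 at P75, 4801, 3797 and 4278 at 6 months, and 5453, 6010.5 and 5748 at 24 months. P75 and 6 months overlapped, and P18 lay below and 24 months above both. It rose by 0.93 ± 0.11 at P75 (adjusted p = 1.49e-05) and by 0.42 ± 0.11 at 24 months (adjusted p = 0.0186). The difference of -0.05 ± 0.11 at 6 months (adjusted p = 0.717) was not called. Gria1, the subunit best known from activity-dependent insertion at synapses, had counts of 3202, 3041 and 3876 at P18, 5871, 5975 and 5129 at P75, 8239.7, 7243 and 7128 at 6 months, and 6842, 7491 and 7684 at 24 months. P18 was lowest, and 6 and 24 months overlapped. It rose by 0.75 ± 0.10 at P75 (adjusted p = 4.27e-05) and by 0.41 ± 0.10 at 6 months (adjusted p = 0.0034). The difference of -0.04 ± 0.10 at 24 months (adjusted p = 0.841) was not called. Gria4, expressed early in many neurons and strongly in interneurons and cerebellum, had counts of 1658, 1693 and 1758 at P18, 2425, 2100.0 and 2095 at P75, 4061, 3352 and 3489.6 at 6 months, and 3097, 3511 and 3518 at 24 months. The step at 6 months was its widest. It rose by 0.37 ± 0.09 at P75 (adjusted p = 0.00447) and by 0.72 ± 0.09 at 6 months (adjusted p = 1.09e-05). The difference of -0.10 ± 0.09 at 24 months (adjusted p = 0.453) was not called. The ratio of Gria1 to Gria2 counts ran from 0.954 to 1.11 for P18, 0.732 to 1.02 for P75, 0.748 to 0.921 for 6 months and 0.524 to 0.597 for 24 months, and the 24-month samples lay below all others. The Gria2 call at 24 months was lost with an adjusted p of 0.0659 on dropping 6 months replicate 2, 0.0655 on dropping 24 months replicate 2 and 0.0504 with the GC trend removed (range over all alternatives 0.00174 to 0.0659). The Gria3 call at 24 months was lost with an adjusted p of 0.0892 on dropping 6 months replicate 2, 0.0778 on dropping 24 months replicate 2 and 0.0512 with the GC trend removed (range over all alternatives 0.00227 to 0.0892).

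Of the 5 kainate receptor genes, 4 rose at P75, 2 at 6 months and 1 at 24 months. Of all genes, 21.7%, 27.1% and 10.8% were called higher in these comparisons. The 2 of 5 called at 6 months are below the 52.4% of all genes called in either direction. The 1 of 5 called at 24 months is near the 19.2% of all genes. These receptors modulate transmitter release and slow synaptic currents. Grik1, a low-affinity subunit of interneurons among others, had counts of 144, 132 and 139 at P18, 247, 209.5 and 212 at P75, 312, 272 and 284 at 6 months, and 322, 336 and 319 at 24 months. The ages stood in order without overlap. It rose by 0.68 ± 0.10 at P75 (adjusted p = 0.000101) and by 0.38 ± 0.10 at 6 months (adjusted p = 0.00625). The difference of 0.17 ± 0.10 at 24 months (adjusted p = 0.259) was not called. Grik2, the most widely expressed pore subunit of the family, had counts of 529, 517 and 735 at P18, 867, 775 and 909.8 at P75, 753, 633 and 776 at 6 months, and 978, 1155 and 1176 at 24 months. Its 24-month samples were highest, and P75 and 6 months overlapped. It rose by 0.53 ± 0.13 at P75 (adjusted p = 0.00351) and by 0.61 ± 0.13 at 24 months (adjusted p = 0.00535). The difference of -0.24 ± 0.13 at 6 months (adjusted p = 0.126) was not called. Grik3 had counts of 475, 505 and 614 at P18, 793, 838 and 650.0 at P75, 1037, 883 and 859 at 6 months, and 763, 871 and 986 at 24 months. P18 lay below the rest, and the 24-month samples spread across those of P75 and 6 months. It rose by 0.52 ± 0.13 at P75 (adjusted p = 0.00368). The differences of 0.29 ± 0.13 at 6 months (adjusted p = 0.0638) and -0.09 ± 0.13 at 24 months (adjusted p = 0.659) were not called. Grik4, a high-affinity subunit that needs a low-affinity partner, had counts of 152, 174 and 207 at P18, 227, 211 and 259 at P75, 304, 261 and 276 at 6 months, and 255, 288 and 316 at 24 months. P18 lay below P75 and P75 below 6 months without overlap, and 24 months overlapped with both. It rose by 0.39 ± 0.13 at P75 (adjusted p = 0.0239). The differences of 0.27 ± 0.13 at 6 months (adjusted p = 0.0909) and 0.03 ± 0.13 at 24 months (adjusted p = 0.916) were not called. Grik5, the other high-affinity subunit, had the highest level per length of the family and rose by 0.52 ± 0.12 at 6 months (adjusted p = 0.00128). The differences of -0.13 ± 0.12 at P75 (adjusted p = 0.384) and -0.18 ± 0.12 at 24 months (adjusted p = 0.273) were not called. The Grik4 call at P75 was lost with an adjusted p of 0.117 and 0.0591 on dropping P18 replicates 1 and 2 in turn, 0.103 on dropping P75 replicate 3 and 0.0669 with quantile normalisation (range over all alternatives 0.00435 to 0.117). Grik2 passed at 6 months with an adjusted p of 0.0422 on dropping P18 replicate 3 and 0.00752 with the length trend removed (range over all alternatives 0.00752 to 0.395). Grik3 passed at 6 months with an adjusted p of 0.0326 on dropping P18 replicate 3 and 0.0437 on dropping P75 replicate 2 (range over all alternatives 0.0326 to 0.342).

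The delta receptors act as synaptic organisers bound by cerebellins rather than as glutamate-gated channels. Grid1, one of them, had counts of 209, 247 and 335 at P18, 339.7, 359.7 and 332 at P75, 616, 566 and 562 at 6 months, and 608, 560.1 and 585 at 24 months. P18 replicate 3 lay within the P75 range, and 6 and 24 months overlapped above both. It rose by 0.41 ± 0.13 at P75 (adjusted p = 0.0202) and by 0.76 ± 0.13 at 6 months (adjusted p = 0.00016). The difference of 0.01 ± 0.13 at 24 months (adjusted p = 0.975) was not called. The Grid1 call at P75 was lost with an adjusted p of 0.119 and 0.0635 on dropping P18 replicates 1 and 2 in turn and 0.0657 on dropping P75 replicate 2 (range over all alternatives 0.000169 to 0.119). Of 6 genes in a fixed list of cerebellins and C1q-like proteins, 3 rose and 1 fell at P75, 6 rose at 6 months and 0 were called at 24 months. The shares of all genes called higher and lower in these 3 comparisons were 21.7% and 18.7%, 27.1% and 25.4%, and 10.8% and 8.34%. The median differences of the listed genes were 0.33, 0.52 and 0.06, and those of all genes 0.0172, 0.00291 and 0.0301. C1ql3, a C1q-like protein from forebrain neurons, had counts of 135, 97.2 and 119 at P18, 178, 161 and 199 at P75, 855, 664 and 668 at 6 months, and 492, 615 and 684 at 24 months. The 6- and 24-month samples overlapped, both far above the earlier ages. It rose by 0.62 ± 0.15 at P75 (adjusted p = 0.00332) and by 2.01 ± 0.15 at 6 months (adjusted p = 7.83e-08). The difference of -0.29 ± 0.15 at 24 months (adjusted p = 0.178) was not called. Cbln4, a cerebellin, had a median of 308 at P18 and 719 at 24 months, and rose by 0.47 ± 0.12 at P75 (adjusted p = 0.0064) and by 0.42 ± 0.12 at 6 months (adjusted p = 0.00976). The difference of 0.15 ± 0.12 at 24 months (adjusted p = 0.414) was not called. C1ql2, another C1q-like protein, rose by 0.36 ± 0.13 at P75 (adjusted p = 0.0325) and by 0.52 ± 0.13 at 6 months (adjusted p = 0.00276). The difference of 0.08 ± 0.13 at 24 months (adjusted p = 0.721) was not called. The Cbln4 call at 6 months was lost with an adjusted p of 0.0575 on dropping 6 months replicate 1 (range over all alternatives 0.00107 to 0.0575). The C1ql2 call at P75 was lost with an adjusted p of 0.115 and 0.0886 on dropping P18 replicates 1 and 2 in turn, 0.0719 and 0.119 on dropping P75 replicates 1 and 2 in turn, 0.108 with quantile normalisation and 0.062 with DESeq2 (range over all alternatives 0.0013 to 0.119).

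NMDA receptor genes did not move as one: 2 of 7 rose at P75, 4 rose at 6 months, and 1 rose and 2 fell at 24 months. Of all genes, 21.7% were called higher and 18.7% lower at P75, 27.1% and 25.4% at 6 months, and 10.8% and 8.34% at 24 months. The 2 of 7 rises at P75 are near the 21.7% of all genes. NMDA receptors are calcium-permeable channels that need glutamate and glycine together, built on the obligatory subunit Grin1 with Grin2 and sometimes Grin3 partners. Grin1 had counts of 1308, 1558 and 2058 at P18, 1931, 2081 and 1855 at P75, 4998, 4412 and 4106 at 6 months, and 3814, 3995 and 5125 at 24 months. P18 and P75 overlapped, and all 6 older samples lay above them. It rose by 1.20 ± 0.14 at 6 months (adjusted p = 4.76e-06). The differences of 0.28 ± 0.14 at P75 (adjusted p = 0.132) and -0.07 ± 0.14 at 24 months (adjusted p = 0.764) were not called. Grin2a, the Grin2 subunit that rises with maturation in forebrain, had counts of 14.3, 19.2 and 28.1 at P18, 27.1, 19.5 and 22.1 at P75, 85.3, 55.9 and 79.8 at 6 months, and 30.7, 43.2 and 45.4 at 24 months. The 6-month samples were highest, and P18 and P75 overlapped. It rose by 1.63 ± 0.26 at 6 months (adjusted p = 7.86e-05) and fell by 0.87 ± 0.26 at 24 months (adjusted p = 0.0296). The difference of 0.19 ± 0.26 at P75 (adjusted p = 0.597) was not called. Grin3a, a subunit that lowers calcium entry, had counts of 24.9, 24.9 and 20.1 at P18, 19, 21.3 and 28.7 at P75, 57.7, 40.8 and 48.7 at 6 months, and 33.7, 28.1 and 28.7 at 24 months. Its 6-month samples lay above all others. It rose by 1.07 ± 0.22 at 6 months (adjusted p = 0.000775) and fell by 0.67 ± 0.22 at 24 months (adjusted p = 0.0432). The difference of -0.03 ± 0.22 at P75 (adjusted p = 0.929) was not called. Grin3b, the other such subunit, had counts of 7.13, 12.4 and 8.04 at P18, 15, 13 and 6.63 at P75, 18.7, 17.8 and 17.5 at 6 months, and 20.8, 15.1 and 36.1 at 24 months. P18 and P75 overlapped, as did 6 and 24 months above them. Its differences of 0.26 ± 0.36 at P75 (adjusted p = 0.587), 0.67 ± 0.36 at 6 months (adjusted p = 0.127) and 0.31 ± 0.36 at 24 months (adjusted p = 0.574) were not called.

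The remaining NMDA subunits were Grin2b, Grin2c and Grin2d, the first known from forebrain, the second from cerebellar granule cells and astrocytes, and the third from interneurons and early development. Grin2c had counts of 612, 611 and 687 at P18, 899, 887 and 822 at P75, 789, 782 and 782 at 6 months, and 1089, 993 and 1091 at 24 months. P75 lay above P18 and 24 months above 6 months in every sample. It rose by 0.45 ± 0.08 at P75 (adjusted p = 0.000408) and by 0.43 ± 0.08 at 24 months (adjusted p = 0.00309). The difference of -0.15 ± 0.08 at 6 months (adjusted p = 0.14) was not called. Grin2b rose by 0.75 ± 0.21 at P75 (adjusted p = 0.00945). The differences of -0.18 ± 0.21 at 6 months (adjusted p = 0.489) and 0.11 ± 0.21 at 24 months (adjusted p = 0.761) were not called. Grin2d rose by 0.62 ± 0.17 at 6 months (adjusted p = 0.00565). The differences of -0.39 ± 0.17 at P75 (adjusted p = 0.0756) and -0.30 ± 0.17 at 24 months (adjusted p = 0.216) were not called. Per kb of exon, over the 12 samples, Grin2c had a mean normalised count of 166, Grin2b 3.42, Grin2a 2.19 and Grin2d 14.4. Per kb of coding sequence the 4 means were 225, 19.1, 8.93 and 24.2, so Grin2c was the highest Grin2 gene on either length. The summed cerebellar granule cell markers had lower means at each later age, at 15820.1 ± 761 for P18, 13512 ± 379.5 for P75, 11620.1 ± 378 for 6 months and 11172 ± 37.3 for 24 months, while the astrocyte markers lay at 91590.5 ± 8334 for P18, 89020.3 ± 2361 for P75, 86572 ± 5341 for 6 months and 88151 ± 3145 for 24 months. Which cells the Grin2c RNA came from was not tested. The Grin2a call at 24 months was lost with an adjusted p of 0.123 and 0.0808 on dropping 6 months replicates 1 and 3 in turn and 0.12 and 0.0638 on dropping 24 months replicates 1 and 2 in turn (range over all alternatives 0.00909 to 0.123). The Grin3a call at 24 months was lost with an adjusted p of 0.0514 on dropping P75 replicate 2, 0.172, 0.0552 and 0.0859 on dropping 6 months replicates 1, 2 and 3 in turn, 0.0652, 0.128 and 0.0976 on dropping 24 months replicates 1, 2 and 3 in turn, 0.0638 without the filter on low values, 0.0514 with DESeq2, 0.0602 with a replicate block and 0.0746 with the length trend removed (range over all alternatives 0.0197 to 0.172). Grin1 passed at P75 with an adjusted p of 0.00569 on dropping P18 replicate 3 and 0.0225 with the GC trend removed (range over all alternatives 0.00569 to 0.511). The Grin2b call at P75 was lost with an adjusted p of 0.0517 on dropping P18 replicate 2 and 0.081 with the length trend removed (range over all alternatives 0.000282 to 0.081). Grin2d passed at P75 with an adjusted p of 0.044 on dropping P18 replicate 1, 0.0264 with quantile normalisation and 0.0362 with the length trend removed (range over all alternatives 0.0264 to 0.381). Grin2c passed at 6 months with an adjusted p of 0.0394 with the GC trend removed and 0.00675 with the length trend removed (range over all alternatives 0.00675 to 0.291). Grin3b shares 32.1% of its exon length with Tmem259 on the other strand, Grin1 13.5% with Grin1os and Grin2d 9.66% with Gm45441 (GENCODE vM21), and with no stated strand setting their reads cannot be told apart.

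**Figure D4:**
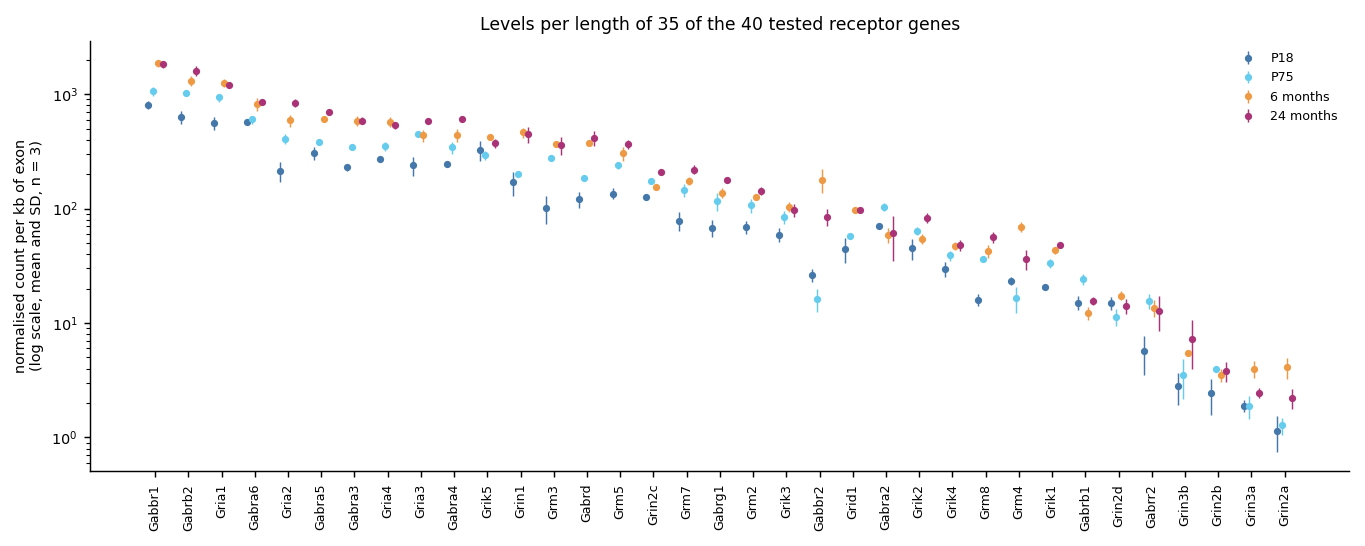
Mean normalised count per kb of exon with SD (vertical axis, log scale, n = 3) at each age for 35 of the 40 tested genes (horizontal axis, ordered by their mean over all samples). Gabbr1 and Gabrb2 lie highest and Grin2a, Grin3a and Grin2b lowest, and the 6-month point of Gabbr2 stands clear of its other ages.

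Levels per length differed widely between members. By mean normalised count per kb of exon over the 12 samples Gabbr1 stood at 1387, Gabrb2 at 1137 and Gria1 at 989. By age Gabbr1 lay at 808 ± 67.1 for P18, 1059 ± 91.9 for P75, 1854 ± 123 for 6 months and 1829 ± 133 for 24 months, and Gabrb2 at 629 ± 77.6 for P18, 1022 ± 57.3 for P75, 1304 ± 134 for 6 months and 1595 ± 156 for 24 months (SD, n = 3). The intervals of mean ± SD overlapped at P75 and 24 months, and Gabrb2 was below Gabbr1 at P18 and 6 months. Per kb of coding sequence Gabrb2 lay above Gabbr1, at 4709.7 against 3740.1. The order of close neighbours therefore rests on which length is used. Exon lengths come from GENCODE vM21, a later annotation than the mm9 build of the counts.

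Group I metabotropic glutamate receptors couple to phospholipase C and are mainly postsynaptic. Grm5, one of them, had counts of 1289, 1311 and 1563 at P18, 2428, 2285 and 2622 at P75, 3472, 2634 and 3275 at 6 months, and 3374, 3965 and 3932 at 24 months. The step from P18 to P75 was the widest. It rose by 0.82 ± 0.11 at P75 (adjusted p = 3.35e-05) and by 0.35 ± 0.11 at 6 months (adjusted p = 0.015). The difference of 0.27 ± 0.11 at 24 months (adjusted p = 0.0948) was not called. The Grm5 call at 6 months was lost with an adjusted p of 0.0634 on dropping P75 replicate 2, 0.0822 and 0.0565 on dropping 6 months replicates 1 and 3 in turn and 0.121 with the length trend removed (range over all alternatives 0.00279 to 0.121). Grm5 passed at 24 months with an adjusted p of 0.0494 on dropping P18 replicate 3 and 0.0209 with the length trend removed (range over all alternatives 0.0209 to 0.383).

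The group II receptors lower cyclic AMP and are presynaptic or, for Grm3, also carried by astrocytes. Grm3 had counts of 368, 345 and 214 at P18, 833, 829 and 859 at P75, 1209.7, 1094 and 1065 at 6 months, and 893, 1089.9 and 1278 at 24 months. Every P75 sample lay far above every P18 sample, and the 24-month samples spanned the 6-month range. It rose by 1.48 ± 0.16 at P75 (adjusted p = 5.14e-06) and by 0.42 ± 0.16 at 6 months (adjusted p = 0.0405). The difference of -0.06 ± 0.16 at 24 months (adjusted p = 0.832) was not called. Grm2, the presynaptic member, had counts of 291, 381 and 335 at P18, 546, 581 and 436 at P75, 632, 619 and 621 at 6 months, and 644, 717 and 746 at 24 months. The ages stood in order without overlap, yet P75 is the step that was called. It rose by 0.63 ± 0.12 at P75 (adjusted p = 0.0005). The differences of 0.27 ± 0.12 at 6 months (adjusted p = 0.0631) and 0.17 ± 0.12 at 24 months (adjusted p = 0.327) were not called. Grm2 shares 9.60% of its exon length with the antisense gene Gm28111. The Grm3 call at 6 months was lost with an adjusted p of 0.0839, 0.0906 and 0.072 on dropping P75 replicates 1, 2 and 3 in turn, 0.13, 0.0707 and 0.0566 on dropping 6 months replicates 1, 2 and 3 in turn, 0.0515 on dropping 24 months replicate 2, 0.056 without the filter on low values, 0.0868 without the mean-variance trend in limma, 0.0519 with a replicate block and 0.0726 with the length trend removed (range over all alternatives 0.00244 to 0.13). Grm2 passed at 6 months with an adjusted p of 0.048 on dropping P18 replicate 1 and 0.0321 on dropping P75 replicate 2 (range over all alternatives 0.0321 to 0.343).

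The group III receptors are autoreceptors of presynaptic terminals, and Grm4 among them is strong in cerebellar granule cells. Grm4 had counts of 129.5, 153 and 137 at P18, 126, 89.9 and 78.5 at P75, 461, 389 and 396 at 6 months, and 183, 203 and 266 at 24 months. P75 was lowest and 6 months highest, with no overlap between any consecutive ages. It fell by 0.53 ± 0.17 at P75 (adjusted p = 0.0194), rose by 2.09 ± 0.17 at 6 months (adjusted p = 1.57e-07) and fell by 0.94 ± 0.17 at 24 months (adjusted p = 0.00214). Grm8 had counts of 169.9, 137 and 167 at P18, 348, 352 and 373 at P75, 474, 368 and 415 at 6 months, and 487, 598 and 579 at 24 months. P18 was lowest and 24 months highest. It rose by 1.18 ± 0.12 at P75 (adjusted p = 2.61e-06) and by 0.41 ± 0.12 at 24 months (adjusted p = 0.0273). The difference of 0.22 ± 0.12 at 6 months (adjusted p = 0.132) was not called. Grm7, the most widespread of the group, had counts of 419, 406 and 557 at P18, 777, 803 and 986 at P75, 1123, 944 and 1014 at 6 months, and 1155, 1367 and 1351 at 24 months. It was lowest at P18, and P75 and 6 months overlapped. It rose by 0.90 ± 0.13 at P75 (adjusted p = 4.46e-05). The differences of 0.27 ± 0.13 at 6 months (adjusted p = 0.0831) and 0.33 ± 0.13 at 24 months (adjusted p = 0.0746) were not called. Grm6, the receptor of retinal bipolar cells, was at 0 or 1 read in all samples and was not tested. The Grm4 call at P75 was lost with an adjusted p of 0.0709 on dropping P18 replicate 2, 0.0651 and 0.103 on dropping P75 replicates 2 and 3 in turn and 0.0707 with the GC trend removed (range over all alternatives 0.00268 to 0.103). The Grm8 call at 24 months was lost with an adjusted p of 0.124 and 0.0586 on dropping 6 months replicates 2 and 3 in turn and 0.115 and 0.0789 on dropping 24 months replicates 2 and 3 in turn (range over all alternatives 0.0103 to 0.124). Grm7 passed at 6 months with an adjusted p of 0.0291 on dropping P18 replicate 3 and 0.0287 on dropping P75 replicate 3 (range over all alternatives 0.0287 to 0.337). Grm7 passed at 24 months with an adjusted p of 0.023 on dropping P18 replicate 3 (range over all alternatives 0.023 to 0.226).

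**Figure D5:**
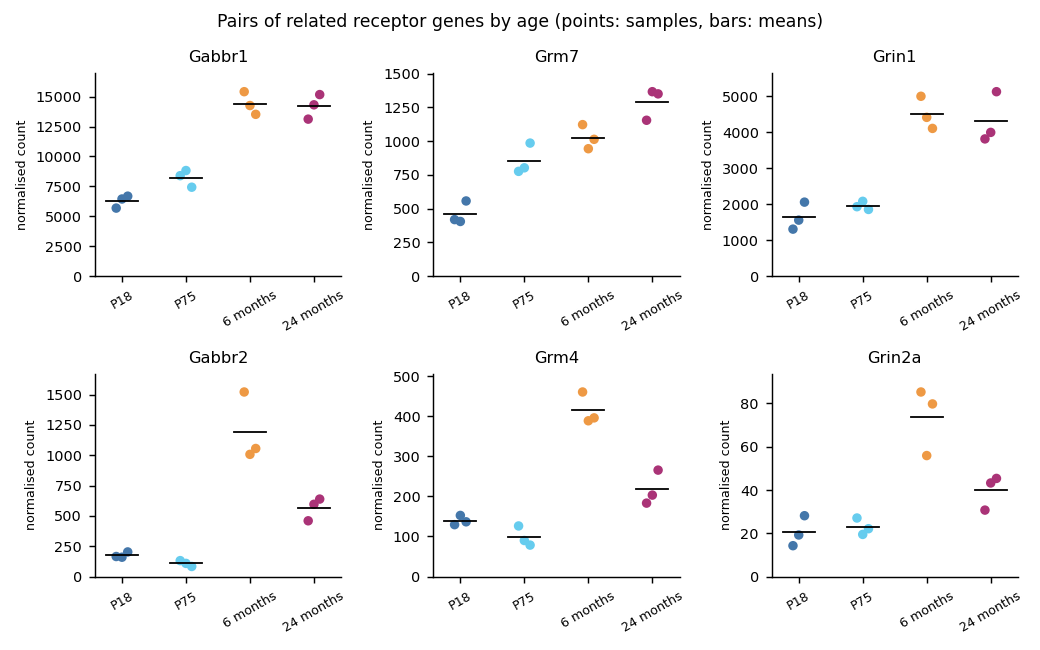
Normalised count (vertical axes, linear from 0, own scale per panel) by age (horizontal axes) for 3 pairs of related genes, one above the other: Gabbr1 and Gabbr2, Grm7 and Grm4, Grin1 and Grin2a. Points are samples and bars are means. The lower gene of each pair peaks at 6 months and is lower at 24 months, while the upper gene keeps overlapping or higher counts at 24 months.

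Not every alpha subunit of the GABA-A receptor is reported here. Of those that are, Gabra2, Gabra3, Gabra4 and Gabra5 rose at P75. At 6 months Gabra3, Gabra4, Gabra5 and Gabra6 rose and Gabra2 fell, and at 24 months Gabra4 rose. Shares of all genes called higher were 21.7%, 27.1% and 10.8% in these comparisons, and 25.4% were called lower at 6 months. The alpha subunit helps form the GABA site and decides where the receptor sits and how it responds to benzodiazepines. Gabra3, found in thalamic and brainstem neurons among others, had counts of 910.2, 951 and 833 at P18, 1391, 1291 and 1377 at P75, 2513, 2094 and 2288 at 6 months, and 2127, 2425 and 2351 at 24 months. P18 lay below P75 and P75 below the older ages, which overlapped. It rose by 0.59 ± 0.09 at P75 (adjusted p = 7.89e-05) and by 0.76 ± 0.09 at 6 months (adjusted p = 4.18e-06). The difference of 0.00 ± 0.09 at 24 months (adjusted p = 0.983) was not called. Gabra4, a subunit of extrasynaptic receptors, had counts of 1512, 1531 and 1417 at P18, 2026, 1862 and 2367 at P75, 2747, 2310.5 and 2979.7 at 6 months, and 3576, 3833 and 3563 at 24 months. The 24-month samples lay above all others. It rose by 0.48 ± 0.10 at P75 (adjusted p = 0.00142), by 0.36 ± 0.10 at 6 months (adjusted p = 0.00742) and by 0.46 ± 0.10 at 24 months (adjusted p = 0.0077). Gabra5, an extrasynaptic subunit of hippocampus, had counts of 899.5, 789 and 1029 at P18, 1186, 1114 and 1090.0 at P75, 1882, 1749 and 1752 at 6 months, and 2058, 2161 and 2058 at 24 months. Successive ages did not overlap. It rose by 0.33 ± 0.09 at P75 (adjusted p = 0.00922) and by 0.67 ± 0.09 at 6 months (adjusted p = 1.93e-05). The difference of 0.22 ± 0.09 at 24 months (adjusted p = 0.0963) was not called.

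Gabra2 and Gabra6 departed from these. Gabra2, a synaptic alpha that is prominent early in life, had counts of 554, 546 and 521 at P18, 762, 739 and 856 at P75, 532, 419 and 405 at 6 months, and 318, 383 and 691 at 24 months. P75 was highest, and 24 months replicate 3 lay far above the other samples of its age. It rose by 0.54 ± 0.20 at P75 (adjusted p = 0.0383) and fell by 0.80 ± 0.20 at 6 months (adjusted p = 0.00266). The difference of -0.03 ± 0.20 at 24 months (adjusted p = 0.927) was not called. Gabra6, which is confined in the brain mainly to cerebellar granule cells, had counts of 1468, 1416 and 1380.1 at P18, 1554, 1361 and 1569.8 at P75, 2287, 1752 and 2044 at 6 months, and 2000.1, 2173 and 2259 at 24 months. P18 and P75 overlapped, and the older samples lay above them. It rose by 0.43 ± 0.10 at 6 months (adjusted p = 0.00141). The differences of 0.07 ± 0.10 at P75 (adjusted p = 0.595) and 0.09 ± 0.10 at 24 months (adjusted p = 0.563) were not called. The Gabra2 call at P75 was lost with an adjusted p of 0.0632, 0.0732 and 0.0602 on dropping P18 replicates 1, 2 and 3 in turn, 0.0694, 0.0604 and 0.12 on dropping P75 replicates 1, 2 and 3 in turn, 0.0556 without the filter on low values, 0.0888 without the mean-variance trend in limma, 0.141 with the GC trend removed and 0.0538 with the length trend removed (range over all alternatives 0.00171 to 0.141). The Gabra4 call at 6 months was lost with an adjusted p of 0.0526 with the length trend removed (range over all alternatives 0.00112 to 0.0526). The Gabra5 call at P75 was lost with an adjusted p of 0.0616 on dropping P18 replicate 2 (range over all alternatives 0.000658 to 0.0616). Gabra5 passed at 24 months with an adjusted p of 0.0386 on dropping P18 replicate 3 (range over all alternatives 0.0386 to 0.244).

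Not every beta and gamma subunit is reported here. Of those that are, Gabrg1, Gabrb1 and Gabrb2 rose at P75, and Gabrb2 rose and Gabrb1 fell at 6 months. Shares of all genes called higher were 21.7% at P75 and 27.1% at 6 months, and 25.4% were called lower at 6 months. Beta subunits complete the GABA site, and the gamma subunit completes the benzodiazepine site and holds the receptor at synapses. Gabrg1, a rarer gamma subunit that glia also express, had counts of 553, 610.1 and 434 at P18, 815, 827 and 1109 at P75, 1163, 961 and 1136 at 6 months, and 1373, 1445 and 1362 at 24 months. P75 and 6 months overlapped. It rose by 0.78 ± 0.13 at P75 (adjusted p = 0.000209). The differences of 0.25 ± 0.13 at 6 months (adjusted p = 0.113) and 0.36 ± 0.13 at 24 months (adjusted p = 0.062) were not called. Gabrb2 had counts of 3696, 3739 and 4571 at P18, 6437, 6168 and 6889 at P75, 9115, 7412 and 8350.2 at 6 months, and 8997, 10776 and 10658 at 24 months. The 6- and 24-month samples overlapped above P75. It rose by 0.70 ± 0.11 at P75 (adjusted p = 0.000114) and by 0.35 ± 0.11 at 6 months (adjusted p = 0.0139). The difference of 0.29 ± 0.11 at 24 months (adjusted p = 0.0719) was not called. Gabrb1 had counts of 183, 202 and 242 at P18, 301, 333 and 374 at P75, 165, 191 and 148 at 6 months, and 199, 230.3 and 218 at 24 months. P75 was highest, and P18 overlapped with both older ages. It rose by 0.68 ± 0.13 at P75 (adjusted p = 0.000694) and fell by 1.0 ± 0.13 at 6 months (adjusted p = 1.42e-05). The difference of 0.36 ± 0.13 at 24 months (adjusted p = 0.0628) was not called. The Gabrb2 call at 6 months was lost with an adjusted p of 0.0543 on dropping P75 replicate 2, 0.07 on dropping 6 months replicate 1 and 0.0683 with the length trend removed (range over all alternatives 0.00426 to 0.07). Gabrb2 passed at 24 months with an adjusted p of 0.0304 on dropping P18 replicate 3 and 0.0442 with DESeq2 (range over all alternatives 0.0304 to 0.255). Gabrg1 passed at 6 months with an adjusted p of 0.0176 on dropping P75 replicate 3 and 0.00635 with the GC trend removed (range over all alternatives 0.00635 to 0.477). Gabrg1 passed at 24 months with an adjusted p of 0.0203 on dropping P18 replicate 3, 0.0355 on dropping P75 replicate 3, 0.0468 with edgeR and 0.0444 with DESeq2 (range over all alternatives 0.0203 to 0.223). Gabrb1 passed at 24 months with an adjusted p of 0.0331 on dropping P18 replicate 3 and 0.025 with the length trend removed (range over all alternatives 0.025 to 0.198).

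GABA-A subunit genes lie in clusters, and neighbours did not always move together. In the RefSeq gene order Gabra6 and Gabrb2 follow each other on chromosome 11 with 0 protein-coding genes between them, and both rose at 6 months. Gabra4 and Gabrb1 are direct neighbours on chromosome 5 whose annotated first exons share 46 bases, and at 6 months Gabra4 rose by 0.36 while Gabrb1 fell by 1.0 on the log2 scale. Their count ratio, Gabra4 over Gabrb1, ran from 5.85 to 8.26 for P18, 5.59 to 6.74 for P75, 12.1 to 20.1 for 6 months and 16.4 to 18 for 24 months.

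Among the other GABA-A genes 2 of 7 were tested. Gabrd, the delta subunit of extrasynaptic receptors that give a steady inhibition, had counts of 295, 342 and 401 at P18, 524, 564 and 523 at P75, 1137, 1027 and 1048 at 6 months, and 1030.3, 1158 and 1395 at 24 months. The 3 younger ages stood in order without overlap, and 24 months overlapped with 6 months. It rose by 0.64 ± 0.12 at P75 (adjusted p = 0.000461) and by 0.99 ± 0.12 at 6 months (adjusted p = 5.16e-06). The difference of 0.15 ± 0.12 at 24 months (adjusted p = 0.398) was not called. Gabrr2, one of the rho subunits best known from retina, had counts of 7.13, 12.4 and 16.1 at P18, 29.1, 31.5 and 38.7 at P75, 30.1, 32.8 and 23.4 at 6 months, and 24.8, 19.5 and 37 at 24 months. P18 was lowest and the other ages overlapped. It rose by 1.46 ± 0.30 at P75 (adjusted p = 0.00107). The differences of -0.20 ± 0.30 at 6 months (adjusted p = 0.595) and -0.12 ± 0.30 at 24 months (adjusted p = 0.822) were not called. The 6 untested GABA-A genes had at most 26 reads in any sample: Gabrg3 2 to 26, Gabrq 0 to 16, Gabre 0 to 13, Gabrr1 2 to 5, Gabrp 0 to 2 and Gabrr3 0 to 1.

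The 2 GABA-B genes moved apart at P75 and together at 6 months. Gabbr1 binds GABA, and Gabbr2 carries it to the surface and couples to the G protein, so a working receptor needs both. Gabbr2 had counts of 165, 159 and 203 at P18, 131, 108 and 82.9 at P75, 1522, 1007 and 1056 at 6 months, and 459.7, 596 and 639 at 24 months. P75 was lowest, 6 months highest, and no consecutive ages overlapped. It fell by 0.72 ± 0.18 at P75 (adjusted p = 0.00453), rose by 3.46 ± 0.18 at 6 months (adjusted p = 5.87e-09) and fell by 1.07 ± 0.18 at 24 months (adjusted p = 0.00165). The rise at 6 months was the largest of any member in any comparison. Gabbr1 had counts of 5689.5, 6449 and 6686 at P18, 8397, 8826 and 7433 at P75, 15409, 14253 and 13518 at 6 months, and 13117, 14312 and 15167 at 24 months. It was lowest at P18, and 6 and 24 months overlapped. It rose by 0.39 ± 0.10 at P75 (adjusted p = 0.00643) and by 0.81 ± 0.10 at 6 months (adjusted p = 9.36e-06). The difference of -0.02 ± 0.10 at 24 months (adjusted p = 0.917) was not called. The ratio of Gabbr1 to Gabbr2 counts ran from 33 to 40.5 for P18, 64 to 89.7 for P75, 10.1 to 14.1 for 6 months and 23.7 to 28.5 for 24 months. It was highest at P75 and lowest at 6 months, with no overlap between any ages. Per kb of exon Gabbr2 stood at 26.3 ± 3.54 for P18, 16.1 ± 3.62 for P75, 179 ± 42.5 for 6 months and 84.5 ± 14 for 24 months (SD, n = 3), below Gabbr1 at each age.

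Partners of the GABA-B receptor were taken from a fixed list. These are the auxiliary Kctd subunits, the inward rectifier potassium channels that the receptor opens, the G protein Gnao1 and the adhesion protein Ajap1. Of 9 genes, 1 rose and 2 fell at P75, 5 and 1 at 6 months, and 0 and 4 at 24 months (all genes: 21.7% and 18.7%, 27.1% and 25.4%, and 10.8% and 8.34%), with median differences of -0.08, 0.56 and -0.38. Their summed count was below the P18 mean at each later age, with means of 0.71, 0.88 and 0.69 relative to it, where the GABA-B sum was at 1.29, 2.42 and 2.29. Both sums follow their most abundant genes. Most of the GABA-B sum was Gabbr1. In P18 replicate 1 the partner sum was 16611, with Kcnj3 at 71.3 and Kcnj9 at 406, so the sum does not show how most partners moved. The 4 falls at 24 months became 0 without 24 months replicate 1, 1 without 6 months replicate 1 and 2 without 6 months replicate 2. Over all alternatives they numbered 0 to 6. Kcnj3, a subunit of these channels, had counts of 71.3, 76.8 and 59.3 at P18, 75.2, 73.2 and 78.5 at P75, 441, 304 and 307 at 6 months, and 158, 227 and 267 at 24 months. The 6-month samples were highest, and P18 and P75 overlapped. It rose by 2.18 ± 0.19 at 6 months (adjusted p = 2.65e-07) and fell by 0.70 ± 0.19 at 24 months (adjusted p = 0.0169). The difference of 0.14 ± 0.19 at P75 (adjusted p = 0.591) was not called. Kcnj9, another channel subunit, had counts of 406, 476 and 469 at P18, 468, 428 and 381 at P75, 1363, 1133 and 1208 at 6 months, and 733, 889 and 1038 at 24 months. It too was highest at 6 months. It rose by 1.53 ± 0.12 at 6 months (adjusted p = 1.53e-07) and fell by 0.49 ± 0.12 at 24 months (adjusted p = 0.0129). The difference of -0.08 ± 0.12 at P75 (adjusted p = 0.625) was not called. Ajap1 rose by 0.30 ± 0.10 at P75 (adjusted p = 0.0255) and by 0.56 ± 0.10 at 6 months (adjusted p = 0.000246). The difference of 0.08 ± 0.10 at 24 months (adjusted p = 0.599) was not called. The Kcnj3 call at 24 months was lost with an adjusted p of 0.0974 on dropping 6 months replicate 1 and 0.0856 on dropping 24 months replicate 1 (range over all alternatives 0.00384 to 0.0974). The Kcnj9 call at 24 months was lost with an adjusted p of 0.0695 on dropping 6 months replicate 1 and 0.0698 on dropping 24 months replicate 1 (range over all alternatives 0.00362 to 0.0698). The Ajap1 call at P75 was lost with an adjusted p of 0.072 and 0.116 on dropping P18 replicates 1 and 2 in turn and 0.0983 on dropping P75 replicate 3 (range over all alternatives 0.00428 to 0.116).

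Scaffold genes of excitatory synapses lie under the receptors in the postsynaptic density. Of 18 tested genes, 0 rose and 12 fell at P75, 12 and 1 at 6 months, and 1 and 5 at 24 months (all genes: 21.7% and 18.7%, 27.1% and 25.4%, and 10.8% and 8.34%), with median differences of -0.39, 0.33 and -0.30, and the summed count was 51655 ± 4727 for P18, 39376 ± 1834 for P75, 45481 ± 544 for 6 months and 38229 ± 1592 for 24 months. In the pan-neuronal list 11 of 19 fell in the same P75 comparison, and a difference between the lists was not tested. Without P75 replicate 3 the P75 falls of scaffold genes numbered 8, and the 24-month falls ranged from 2 without 6 months replicate 1, 24 months replicate 1 or 24 months replicate 2 to 11 without P18 replicate 3, with 3 without 6 months replicate 2 and 8 without P18 replicate 1 or P75 replicate 3. Dlg4 encodes the main scaffold under AMPA and NMDA receptors, and had counts of 13609, 14233 and 16254 at P18, 8947, 9529 and 7007 at P75, 8718, 9316 and 9001 at 6 months, and 7158, 7151 and 7601 at 24 months. P18 lay above all later samples. It fell by 0.80 ± 0.11 at P75 (adjusted p = 4.53e-05). The differences of 0.10 ± 0.11 at 6 months (adjusted p = 0.485) and -0.30 ± 0.11 at 24 months (adjusted p = 0.0667) were not called. Dlg2, a relative of Dlg4, had counts of 5270.1, 5416 and 6623 at P18, 4176, 4004 and 3919 at P75, 5197, 4547 and 4711 at 6 months, and 3275, 3819 and 3617 at 24 months. P18 lay above P75, and 24 months was lowest. It fell by 0.51 ± 0.10 at P75 (adjusted p = 0.000669), rose by 0.25 ± 0.10 at 6 months (adjusted p = 0.0383) and fell by 0.43 ± 0.10 at 24 months (adjusted p = 0.00806). Shank1, a deeper scaffold of the postsynaptic density, had counts of 696, 763 and 822 at P18, 475, 342 and 217 at P75, 2291, 1945 and 1803 at 6 months, and 1068, 1188 and 1413 at 24 months. Like Gabbr2 and Grm4 it was lowest at P75 and highest at 6 months. It fell by 1.21 ± 0.20 at P75 (adjusted p = 0.000156), rose by 2.61 ± 0.20 at 6 months (adjusted p = 8.4e-08) and fell by 0.72 ± 0.20 at 24 months (adjusted p = 0.0189). The Shank1 call at 24 months was lost with an adjusted p of 0.0889 and 0.0507 on dropping 6 months replicates 1 and 2 in turn, 0.0809 and 0.0645 on dropping 24 months replicates 1 and 2 in turn and 0.0592 without the mean-variance trend in limma (range over all alternatives 0.00212 to 0.0889). The Dlg2 call at 6 months was lost with an adjusted p of 0.0514, 0.0844 and 0.0972 on dropping P75 replicates 1, 2 and 3 in turn, 0.146 and 0.0623 on dropping 6 months replicates 1 and 3 in turn, 0.0599 without the mean-variance trend in limma, 0.053 with a replicate block and 0.354 with the length trend removed (range over all alternatives 0.0114 to 0.354). Dlg4 passed at 24 months with an adjusted p of 0.0337 on dropping P18 replicate 3, 0.0313 on dropping P75 replicate 3 and 0.0371 with DESeq2 (range over all alternatives 0.0313 to 0.173).

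For inhibitory synapses, 16 scaffold and trafficking genes were tested, of which 1 rose and 6 fell at P75, 9 and 0 at 6 months, and 0 and 3 at 24 months (all genes: 21.7% and 18.7%, 27.1% and 25.4%, and 10.8% and 8.34%), with median differences of -0.14, 0.49 and -0.13. The 3 of 16 called at 24 months are near the 19.2% of all genes. The 3 falls at 24 months became 1 without 6 months replicate 1 or 2 or 24 months replicate 1 or 2, and 6 without P18 replicate 3. Clptm1, which limits GABA-A receptor traffic to the surface, had counts of 1258, 1444 and 1538 at P18, 1677, 1818 and 1646 at P75, 3363, 3253 and 3098 at 6 months, and 2891, 2994 and 3596 at 24 months. The older ages overlapped above the younger. It rose by 0.28 ± 0.10 at P75 (adjusted p = 0.0292) and by 0.92 ± 0.10 at 6 months (adjusted p = 1.84e-06). The difference of -0.04 ± 0.10 at 24 months (adjusted p = 0.808) was not called. Nlgn2, the adhesion protein of inhibitory synapses, had counts of 1999.9, 2166 and 2884 at P18, 2432, 2679.5 and 1946 at P75, 4243, 4048 and 3729 at 6 months, and 3490.1, 3509.6 and 3984 at 24 months. P18 and P75 overlapped below the later ages. It rose by 0.78 ± 0.13 at 6 months (adjusted p = 0.00013). The differences of 0.01 ± 0.13 at P75 (adjusted p = 0.973) and -0.13 ± 0.13 at 24 months (adjusted p = 0.513) were not called. The Clptm1 call at P75 was lost with an adjusted p of 0.146 on dropping P18 replicate 1, 0.052 and 0.106 on dropping P75 replicates 1 and 2 in turn and 0.0557 without the mean-variance trend in limma (range over all alternatives 0.00584 to 0.146).

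Auxiliary subunits of AMPA and kainate receptors, which steer traffic and gating, gave 19 tested genes, of which 7 rose and 4 fell at P75, 14 and 1 at 6 months, and 2 and 2 at 24 months (all genes: 21.7% and 18.7%, 27.1% and 25.4%, and 10.8% and 8.34%), with median differences of 0.06, 0.45 and -0.04. The 4 of 19 called at 24 months are near the 19.2% of all genes. The 24-month counts were 0 and 0 without 6 months replicate 2 or 24 months replicate 2, and 2 and 4 without P18 replicate 3. Shisa9, an AMPA receptor modulator, had counts of 505, 531 and 537 at P18, 668, 711 and 657 at P75, 1585, 1342 and 1277 at 6 months, and 966, 1223 and 1365 at 24 months. Its 6-month samples lay far above P75 and overlapped with 24 months. It rose by 0.37 ± 0.11 at P75 (adjusted p = 0.0156) and by 1.04 ± 0.11 at 6 months (adjusted p = 2.44e-06). The difference of -0.25 ± 0.11 at 24 months (adjusted p = 0.129) was not called. Cacng5, a member of the TARP family, rose by 0.59 ± 0.11 at P75 (adjusted p = 0.000601) and by 0.91 ± 0.11 at 6 months (adjusted p = 7.08e-06). The difference of -0.09 ± 0.11 at 24 months (adjusted p = 0.612) was not called. Olfm3, an olfactomedin, rose by 0.72 ± 0.11 at P75 (adjusted p = 0.000109), by 0.42 ± 0.11 at 6 months (adjusted p = 0.00473) and by 0.43 ± 0.11 at 24 months (adjusted p = 0.015). The Shisa9 call at P75 was lost with an adjusted p of 0.0563 on dropping P75 replicate 2 (range over all alternatives 0.00525 to 0.0563). The Olfm3 call at 24 months was lost with an adjusted p of 0.0801 on dropping 6 months replicate 2, 0.0806 on dropping 24 months replicate 2 and 0.0543 with the GC trend removed (range over all alternatives 0.00417 to 0.0806). Shisa9 passed at 24 months with an adjusted p of 0.0488 on dropping 24 months replicate 3 (range over all alternatives 0.0488 to 0.516).

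The transmitter side and chloride handling were measured with fixed lists too. Of 14 genes for glutamate synthesis, vesicle loading and uptake, 7 rose and 0 fell at P75, 8 and 1 at 6 months, and 3 and 0 at 24 months (all genes: 21.7% and 18.7%, 27.1% and 25.4%, and 10.8% and 8.34%), with median differences of 0.27, 0.32 and -0.04. The 3 rises at 24 months became 0 without 6 months replicate 2, 24 months replicate 2 or 24 months replicate 3 and 1 without 24 months replicate 1. Slc17a6, the vesicular glutamate transporter of thalamus and brainstem, had counts of 1616, 1767 and 1469 at P18, 2325, 2534 and 2794 at P75, 3609, 2961 and 3368 at 6 months, and 3900.2, 4483 and 4420.0 at 24 months. The ages stood in order without overlap. It rose by 0.66 ± 0.10 at P75 (adjusted p = 0.000101), by 0.38 ± 0.10 at 6 months (adjusted p = 0.00512) and by 0.37 ± 0.10 at 24 months (adjusted p = 0.0201). Slc1a1, a neuronal glutamate transporter, rose by 0.88 ± 0.10 at 6 months (adjusted p = 3.43e-06). The differences of 0.23 ± 0.10 at P75 (adjusted p = 0.0806) and 0.00 ± 0.10 at 24 months (adjusted p = 0.997) were not called. Slc38a2, a glutamine transporter, rose by 0.43 ± 0.11 at P75 (adjusted p = 0.00545) and by 0.60 ± 0.11 at 6 months (adjusted p = 0.000272). The difference of 0.13 ± 0.11 at 24 months (adjusted p = 0.43) was not called. The Slc17a6 call at 24 months was lost with an adjusted p of 0.0964 on dropping 6 months replicate 2 and 0.0877 and 0.0608 on dropping 24 months replicates 2 and 3 in turn (range over all alternatives 0.00612 to 0.0964). Slc1a1 passed at P75 with an adjusted p of 0.012 on dropping P18 replicate 3 (range over all alternatives 0.012 to 0.283). Of 10 genes for GABA synthesis, loading, uptake and breakdown, 4 rose and 1 fell at P75, 6 and 0 at 6 months, and 0 and 4 at 24 months (all genes: 21.7% and 18.7%, 27.1% and 25.4%, and 10.8% and 8.34%), with median differences of 0.34, 0.27 and -0.10. The 4 falls became 1 without P75 replicate 2, either of 6 months replicates 1 and 2, or any of the 3 24-month samples, and 2 without P18 replicate 1. Slc32a1, which fills vesicles with GABA, had counts of 589, 727 and 867 at P18, 1124, 1332 and 1302 at P75, 2543, 2224 and 2200.2 at 6 months, and 2389, 2267 and 2750.1 at 24 months. The younger ages lay below the older without overlap. It rose by 0.80 ± 0.12 at P75 (adjusted p = 0.000104) and by 0.89 ± 0.12 at 6 months (adjusted p = 2.05e-05). The difference of 0.09 ± 0.12 at 24 months (adjusted p = 0.659) was not called. Slc6a13, a GABA transporter of meninges and vessels, rose by 0.90 ± 0.19 at P75 (adjusted p = 0.0014) and by 1.66 ± 0.19 at 6 months (adjusted p = 3.73e-06). The difference of 0.01 ± 0.19 at 24 months (adjusted p = 0.986) was not called.

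Chloride transporters and channels, which set whether GABA-A receptors excite or inhibit, gave 5 tested genes, of which 2 rose and 0 fell at P75, 5 and 0 at 6 months, and 1 and 0 at 24 months (all genes: 21.7% and 18.7%, 27.1% and 25.4%, and 10.8% and 8.34%), with median differences of 0.40, 0.50 and 0.06. The 5 rises at 6 months became 3 without P75 replicate 1 or 6 months replicate 1. Slc12a5, the neuronal chloride exporter, had counts of 3161, 3548 and 4549 at P18, 6759, 6676 and 6337 at P75, 10099, 8996 and 8917 at 6 months, and 9607, 10514 and 11775 at 24 months. P18 lay below P75 and P75 below the older ages, which overlapped. It rose by 0.83 ± 0.12 at P75 (adjusted p = 5.87e-05) and by 0.50 ± 0.12 at 6 months (adjusted p = 0.00225). The difference of 0.18 ± 0.12 at 24 months (adjusted p = 0.29) was not called. Clcn2, a chloride channel that glia of white matter depend on, had counts of 289.9, 296 and 422 at P18, 515, 560.0 and 535 at P75, 721, 682 and 741 at 6 months, and 1055, 1017 and 987 at 24 months. The ages stood in order without overlap. It rose by 0.70 ± 0.12 at P75 (adjusted p = 0.000222), by 0.41 ± 0.12 at 6 months (adjusted p = 0.00751) and by 0.51 ± 0.12 at 24 months (adjusted p = 0.00845).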

How the data were processed

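RNA was sequenced in 12 samples, 3 at each of 4 ages. The deposited table gives 1 normalised count signal per gene and sample, which per the submitters' processing notes came from TopHat, HTSeq and DESeq with the build mm9; versions, strand setting and annotation are not given in the sources used here. The authors' values proved to be whole reads divided by 1 factor per sample: 100% of values in all 12 columns fell on multiples of 1 step per column (tolerance 0.0061), and in 3 columns the step lay within 1% of 1. These reads gave the depth of 20299052 to 27214385 per sample and served only the count-based alternatives.

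Values were tested as log2(value + 1) in limma 3.58.1 (R 4.3.3) with a mean-variance trend, over all 12 samples in 4 age groups, for 14987 genes with a value of at least 10 in at least 3 samples. Adding 1 understates the change of genes with low counts. Tests were two-sided, with Benjamini-Hochberg adjustment over all genes and a threshold of 0.05, and the steps were tested on simulated data. There limma called 51% of genes given a log2 change of 0.5 at P75, 90% of those given 1, and 0.0541% of unchanged genes. Only 200 genes were changed in the simulation, so these shares need not hold for the data. A difference that was not called may be a change that was missed. Alternatives were pseudocounts of 0.5 and 5, no filter and a filter of 50, quantile normalisation, edgeR 4.0.16 and DESeq2 1.42.0 on the reads, limma without the trend, a replicate block and each sample left out. Removal of a GC or length trend was added after seeing the data. Per-sample values are given for up to 4 members of each family with the widest range of age means, and for the 3 genes of each of 8 pathway lists with the lowest F test p, in part only as differences; some genes these rules pick are not reported here. Gabra2, Gabra6, Gabrb1 and Grin2c were given in full outside this rule, after their values were seen. The members and lists were chosen with earlier results of these data known. Promoter windows were read from a RefSeq table (GRCm38.p6), and lengths and exon overlaps from GENCODE vM21, matched by symbol for all 47 genes.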

Additional observations from a re-analysis of the deposited data

How the results depend on the processing

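Of the 120 pairs of a tested member and a comparison, 89 kept their call or lack of one under all 23 alternatives, and 31 did not. Of the 73 called pairs, 56 stayed called throughout and 17 lost the call at least once. No called member changed sign. With 1 sample left out at a time, the members called numbered 26 to 32 at P75 (32 with all samples), 24 to 31 at 6 months (28), 7 to 19 at 24 months (13) and 39 to 40 in the F test (40). At 24 months the lowest counts were 7 without 24 months replicate 2 and 8 without 6 months replicate 2, and the highest was 19 without P18 replicate 3. Over all genes the 24-month calls, 2876 with all samples, fell to 1279 on dropping 6 months replicate 1, 1495 on dropping 6 months replicate 2, 1510 on dropping 24 months replicate 1 and 1230 on dropping 24 months replicate 2. Of the genes called at 24 months 56.5% were higher, and 46.4% with the GC trend removed.

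The labels do not say whether replicate numbers pair samples of different ages. Deviations from the age means correlated at -0.18 to 0.16 between same-numbered samples of different ages (18 pairs, 3 of them above 0.1). Between the others they correlated at -0.15 to 0.19 (36 pairs, 4 of them above 0.1). Between P75 and 6 months, same-numbered samples correlated at 0.147, 0.0934 and 0.165, and the others at -0.132 to -0.0282. From P18 to P75 the same-numbered values were -0.0328, -0.128 and -0.127, and the others -0.117 to 0.189. From 6 to 24 months they were -0.185, -0.0579 and -0.0615, and the others -0.0909 to 0.141. Deviations within an age sum to 0, so the values for a pair of ages are not independent of each other. Whether the samples were paired was not tested. With the replicate number as a block, 32 members were called at P75, 27 at 6 months, 11 at 24 months and 40 in the F test.

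Depth limits the lowest members. The 7 untested genes had at most 26 reads in any sample, and the SE of log2 differences reached 0.36 for Grin3b against 0.08 for Grin2c. The 3 samples per age and the absence of any stated extraction, library or sequencing batch limit what the p-values cover, and no batch can be examined. Per kb of exon Grin2c lay 48.6 times above Grin2b, and per kb of coding sequence 11.8 times.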

Other observations

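Among the members that did not reach the filter, Gabrg3, Gabrq and Gabre had their highest mean counts at 6 months, and are named after their values were seen. Gabrg3, a gamma subunit, had counts of 2.38, 3.39 and 3.01 at P18, 2.0, 2.78 and 2.21 at P75, 21.1, 8.88 and 15.6 at 6 months, and 7.93, 9.73 and 6.48 at 24 months. Gabrq, the theta subunit, had counts of 0, 1.13 and 0 at P18, 3.01, 1.85 and 0 at P75, 13, 7.99 and 15.6 at 6 months, and 0.99, 1.08 and 4.63 at 24 months. Gabre, the epsilon subunit, had counts of 3.56, 1.13 and 2.01 at P18, 0, 0 and 0 at P75, 10.6, 4.44 and 11.7 at 6 months, and 5.94, 4.32 and 5.55 at 24 months. These genes had at most 26 reads in a sample and are given with no test.

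Across the 40 tested members, log2 differences went with the GC content of the transcript. Spearman's rho was -0.49 at P75, 0.34 at 6 months and -0.53 at 24 months, where it was -0.16, 0.06 and -0.05 across 13506 genes. With transcript length the values were -0.07, -0.13 and -0.05 across members and 0.05, 0.30 and -0.31 across all genes. These are descriptions across genes of the same 12 libraries, which are not independent replicates, and consecutive comparisons share samples.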
